A study of Rattus norvegicus with 3 samples.

Results

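The epithelial sodium channel (ENaC) is the route by which sodium enters the principal cells of the collecting duct from the urine. Its genes and those of its regulators were followed in rat kidney inner medulla, the innermost zone of the kidney, after lithium. The members were the probes whose only annotated gene symbol was Scnn1a, Scnn1b, Scnn1g, Sgk1, Nedd4 or Nedd4l. Of these 6 genes 5 were found, each with 1 probe, among 4390 named genes on the array, and all 5 were among the 3819 features (genes or unnamed probes) with a value on all 3 arrays. Nedd4l was not analysed here. The inner medulla of rats treated with lithium for 1 month was compared with that of control rats on 3 two-colour arrays, as part of a study of lithium-induced nephrogenic diabetes insipidus, a loss of the kidney's response to vasopressin. Arrays 1 and 2 set RNA pooled from 2 treated rats against RNA pooled from 2 control rats, and array 3 set 1 treated rat against 1 control rat. Different rats were used on each array. The sources used here name neither the strain, sex and age of the rats nor the dose and route of lithium.

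In the channel, an alpha, a beta and a gamma subunit, encoded by Scnn1a, Scnn1b and Scnn1g, join into 1 pore, which lets lithium through as well as sodium. Aldosterone, acting through the mineralocorticoid receptor, raises channel activity, in part by inducing the kinase Sgk1. Ubiquitin ligases of the Nedd4 family bind proline-rich motifs in the subunits' tails and mark the channel for removal from the membrane, and Sgk1 holds back this step by phosphorylating Nedd4l. Block of the channel by amiloride is known to lessen lithium's effect on urine concentration.

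Each value is a log ratio of the arrays' channels, read here as red over green, less that array's median. Ratios above 0 were read as higher with lithium. This direction is likely because the labels put lithium RNA in red, but the table did not state it, and with the opposite reading every sign given here turns. The base of the logarithm was not given either, so folds are stated for base 10 and for base 2. Lithium RNA was red on every array, so an effect of the dyes and an effect of lithium cannot be told apart for any gene. Probes without a value numbered 78 to 1473 per array, most of them on array 3, and the SD of the deposited ratios was widest on array 2 (0.198, against 0.135 and 0.115 on arrays 1 and 3). A ratio holds no level, so the labelled tissue could not be checked against its markers, and the abundance of the subunits relative to each other is not known. In whole tissue, a change in the number of principal cells and a change in RNA per cell cannot be told apart.

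All 5 genes had a mean ratio above 0, as did 55.7% of all features, the largest being those of Scnn1b and Scnn1g, and 0 of 5 passed the limma test at an adjusted p of 0.05. Over all features 17 passed, or 0.445%. At an unadjusted p of 0.05, the beta and gamma subunits passed, 2 of 5 and both higher, where 17.2% of all features passed and 9.71% were higher. The ratio was above 0 on every array for 4 of the 5, against 24.1% of all features; Sgk1 was the exception.

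Scnn1b (gene ID 24767) encodes the beta subunit. Its ratios were 0.28 on array 1, 0.30 on array 2 and 0.13 on array 3. All 3 arrays lay above 0, and the single-rat array was below both arrays of pooled rats. The mean was 0.24 ± 0.09 (SD, n = 3), with a standard error of 0.048 in the limma fit, an unadjusted p of 0.00153 and an adjusted p of 0.105. In folds the mean is 1.72 (95% confidence interval 1.33 to 2.23) in base 10, or 1.18 (1.09 to 1.27) in base 2. Among the 3819 features it ranked 16 from the top. The call depended on how the spread was modelled: its adjusted p was 0.0310 with the arrays set to the same spread and 0.0236 with a robust variance prior. Without array 1, 2 or 3 the adjusted p was 0.742, 0.302 and 0.408.

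Scnn1g (gene ID 24768) encodes the gamma subunit. Its ratios were 0.20, 0.12 and 0.23 on arrays 1, 2 and 3. Again every array lay above 0, but here the single-rat array was the highest. The mean was 0.18 ± 0.06 (SD, n = 3), with a limma unadjusted p of 0.00315 and an adjusted p of 0.130, at rank 41 of 3819. That mean is 1.53-fold (1.21 to 1.92) in base 10, or 1.14-fold (1.06 to 1.22) in base 2.

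Scnn1a (gene ID 25122) encodes the alpha subunit, which the other subunits need to form an active channel. Its ratios were 0.06 on array 1, 0.13 on array 2 and 0.05 on array 3. They were close to each other and nearer to 0 than most ratios of the other subunits. The mean of 0.08 ± 0.04 (SD, n = 3) had a limma unadjusted p of 0.0883 and an adjusted p of 0.360, and ranked 598 of 3819. Its interval reached from 0.965-fold to 1.50-fold in base 10, and from 0.989-fold to 1.13-fold in base 2.

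**Figure D1:**
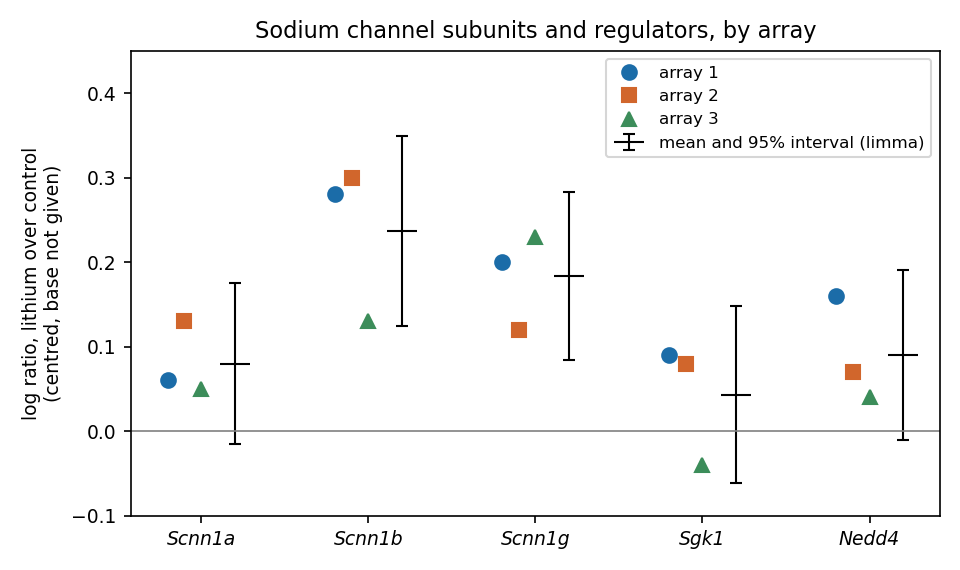
Centred log ratios (base not given) of the 5 genes on the 3 arrays, as coloured points, with the mean and its 95% interval from the limma fit as a black bar. The intervals of Scnn1b and Scnn1g lie above 0, those of Scnn1a, Sgk1 and Nedd4 span it, and none of the 5 adjusted p-values was under 0.05.

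The subunits' ratios were set against each other within each array, in 3 pairs. Scnn1b exceeded Scnn1a on 3 of 3 arrays, by 0.22, 0.17 and 0.08, a mean difference of 0.16 ± 0.07 (SD, n = 3; 95% confidence interval −0.02 to 0.33). Scnn1g exceeded Scnn1a on arrays 1 and 3, by 0.14 and 0.18, and was 0.01 below it on array 2. The mean difference there was 0.10 ± 0.10 (−0.15 to 0.35). Scnn1b exceeded Scnn1g on 2 of 3 arrays, and the difference of 0.05 ± 0.14 (−0.30 to 0.41) changed sign on array 3, where Scnn1g was higher by 0.10. The exact two-sided sign-flip permutation p-values were 0.25, 0.50 and 0.75, and 0.75 for each pair after adjustment over the 3 pairs. With 3 arrays this test cannot go below 0.25, so the order of the subunits was not established, and the intervals leave room both for no difference and for a difference as large as the ratios themselves.

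Scnn1g and Scnn1b lie next to each other on rat chromosome 1, with 0 annotated genes between them in the RefSeq table of assembly GRCr8. Their outer neighbours Usp31 and Cog7 were not analysed here. Because these neighbouring genes had the highest ratios of the 5, the sequence before each start is shown. It runs 5′ to 3′ on the plus strand over the first 200 bases of the RefSeq (GRCr8) promoter window, which ends before the annotated gene. The Scnn1b stretch is chr1:185861126-185861325 and the Scnn1g stretch is chr1:185735975-185736174. Capitals mark matches, on either strand, to the GC box GGGCGG or to TGACG, the core motif of the cAMP response element.
Scnn1b: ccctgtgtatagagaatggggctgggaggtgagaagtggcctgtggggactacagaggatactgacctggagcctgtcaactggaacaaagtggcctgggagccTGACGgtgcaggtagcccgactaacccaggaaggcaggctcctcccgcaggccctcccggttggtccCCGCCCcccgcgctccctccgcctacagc
Scnn1g: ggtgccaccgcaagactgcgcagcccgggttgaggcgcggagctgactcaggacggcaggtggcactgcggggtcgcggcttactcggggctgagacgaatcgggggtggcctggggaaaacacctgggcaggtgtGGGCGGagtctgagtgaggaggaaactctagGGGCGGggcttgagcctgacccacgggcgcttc
The GC box occurred 1 time before Scnn1b, on the opposite strand, and 2 times before Scnn1g, and it is found in 24.2% of the 33469 rat promoter windows of this length. TGACG occurred 1 time before Scnn1b and 0 times before Scnn1g, against 13.5% of windows. A search for AGAACA, the core motif of the corticosteroid receptor element, gave 0 matches in either stretch, and 14.2% of windows hold it. No 2 of these motifs overlapped. The stretches were GC-rich, at 65.0% for Scnn1b and 68.5% for Scnn1g, where the median window had 51.0%. Of the other members, the table held Sgk1, Nedd4 and Nedd4l.

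Sgk1 (gene ID 29517), the aldosterone-induced kinase that keeps the channel at the membrane, had the ratio nearest to 0. It was 0.09 on array 1, 0.08 on array 2 and −0.04 on array 3. The arrays of pooled rats lay above 0 and the single-rat array below. The mean of 0.04 ± 0.07 (SD, n = 3) had a limma unadjusted p of 0.359 and an adjusted p of 0.657. Its interval ran from 0.869-fold to 1.40-fold in base 10, or from 0.959-fold to 1.11-fold in base 2.

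Nedd4 (gene ID 25489), a ubiquitin ligase of the family that removes the channel, had ratios of 0.16, 0.07 and 0.04 on arrays 1, 2 and 3. Every array was above 0, and array 1 stood highest. The mean was 0.09 ± 0.06 (SD, n = 3), which is 1.23-fold (0.976 to 1.55) in base 10 or 1.06-fold (0.993 to 1.14) in base 2. The limma unadjusted p was 0.0727 and the adjusted p 0.335. Nedd4 and Nedd4l are close relatives, and how far the Nedd4 probe also binds Nedd4l RNA was not tested.

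In order of mean ratio the 5 genes ran Scnn1b, Scnn1g, Nedd4, Scnn1a and Sgk1. Each neighbour in that order differed by less than the larger of the SDs of the pair, except Scnn1g and Nedd4, whose difference of means was not tested. The place of a gene within an array's distribution varied between arrays. Scnn1b was at the 99.7th percentile of tested features on arrays 1 and 2 and at the 88.8th on array 3, and Scnn1g at the 98.6th, 79.9th and 98.3rd. Sgk1 moved from the 84.2nd percentile on array 1 to the 34.8th on array 3.

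**Figure D2:**
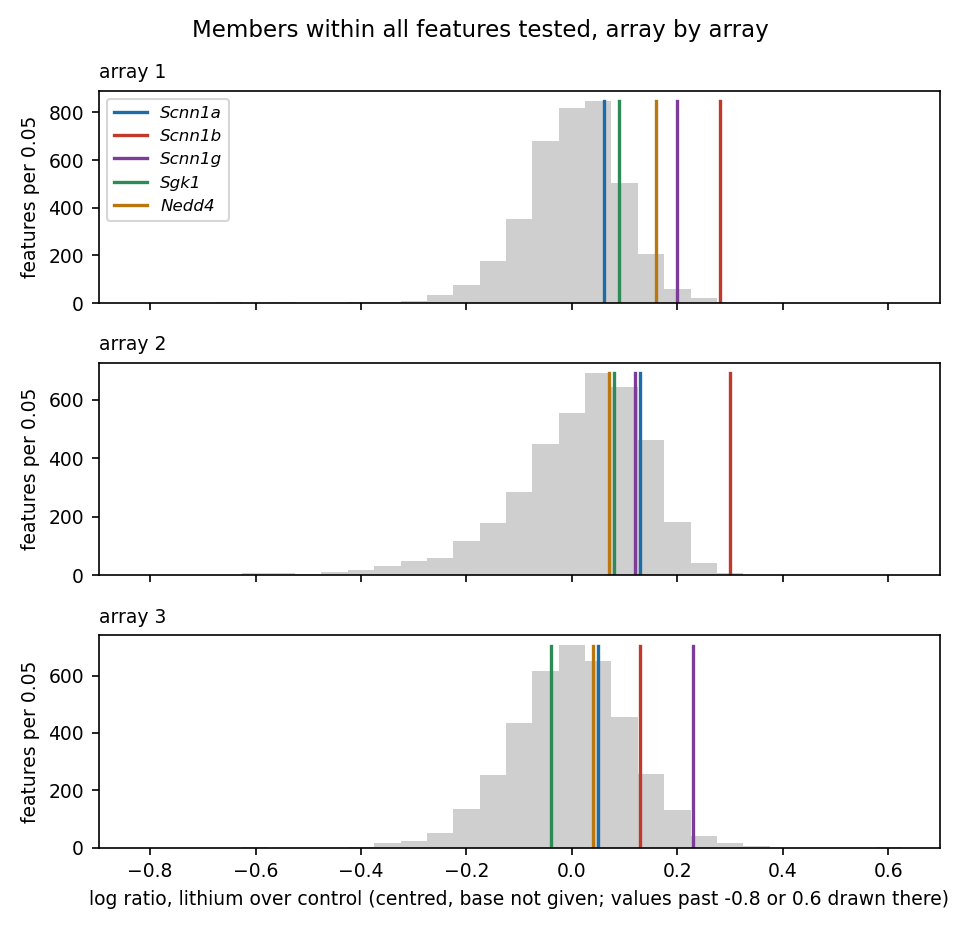
Number of the 3819 tested features per 0.05 step of centred log ratio (grey bars), 1 panel for each array, with the 5 genes as coloured lines. Scnn1b sits in the upper tail on arrays 1 and 2 and Scnn1g on arrays 1 and 3, whereas Scnn1a and Sgk1 lie within the bulk of features.

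The probes of Scnn1g and Nedd4 were printed in the same 1 of the 32 blocks of the array, whose median over the 3 arrays averaged 0.03 above that of all probes. With each block centred on its own median, Scnn1g stood at 0.15 (limma adjusted p = 0.133) and Nedd4 at 0.06 (adjusted p = 0.407). The block of Scnn1b averaged 0.02 below, and Scnn1b stood at 0.26 with an adjusted p of 0.0552.

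Likeness to each gene was measured as the largest absolute difference in centred ratio over the 3 arrays, across 3394 other named genes. Nearest to Scnn1b were Stc1 and Igfals, each within 0.06, and Cdk2, within 0.07, and 0 genes came within 0.05. Nearest to Scnn1g were Megf6, Psmb9 and Hba-a1, each within 0.04, and 11 genes came within 0.05. Scnn1a had Otc, Slc13a3 and Pi4k2a within 0.01, Sgk1 had Atp1a4, Rpl13 and Zeb1 within 0.01, and Nedd4 had Chrnb4, Arf3 and Atp5pd within 0.02. Within 0.05 there were 255, 152 and 51 genes of these patterns. These are likenesses of 3 values from arrays that share 1 dye orientation. Fewer features lie in the tails of each array than near 0, so the counts of close genes depend on where a gene sits.

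The list of corticosteroid receptors, enzymes and responsive genes held the only gene past the threshold among the pathway lists, an enzyme gene. Of 8 tested genes 6 had a mean above 0 and 2 below, 1 rose and 0 fell, with a median of 0.04, against a median of 0.01 over all features tested. Over all features 55.7% had a mean above 0 and 0.445% passed the limma test, the shares to set beside the counts of each list. Hsd11b2, which inactivates glucocorticoids and so leaves the mineralocorticoid receptor to aldosterone, rose, with ratios of 0.52, 0.57 and 0.37 (limma adjusted p = 0.0234); leaving out any 1 array ended this call, as it did all others. The receptor genes stood near 0, at 0.04 ± 0.04 for the mineralocorticoid receptor Nr3c2 and 0.05 ± 0.07 for the glucocorticoid receptor Nr3c1 (SD, n = 3; adjusted p = 0.654 and 0.564). Hsd11b1, which regenerates active glucocorticoid, stood at −0.15 ± 0.02 (adjusted p = 0.150). Among targets of these receptors, Fxyd4, a regulator of the sodium pump in collecting duct, stood at 0.14 ± 0.04 (adjusted p = 0.176), and Tsc22d3, a leucine-zipper protein induced by corticosteroids, at −0.01 ± 0.11 (adjusted p = 0.957).

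Kinases upstream and beside Sgk1 had means from −0.04 to 0.10. Of 13 tested genes of the PI3K, SGK and WNK kinase list, 8 were above 0, 4 below and 1 at 0, 0 passed (0 at an unadjusted p of 0.05 as well), and the median was 0.01. The highest were Akt2, a kinase related to Sgk1 and activated with it, at 0.08, 0.18 and 0.03 on arrays 1, 2 and 3 (mean 0.10, limma adjusted p = 0.325), and Prkaa2, a catalytic subunit of the AMP-activated kinase, at 0.12, 0.12 and 0.03 (mean 0.09, adjusted p = 0.322). Both were above 0 on all 3 arrays, with means as large as that of Nedd4. Pdpk1, which activates Sgk1, had ratios of 0.00, 0.04 and −0.04, averaging 0.00 ± 0.04 (SD, n = 3). Wnk1, a kinase that acts on distal sodium transport, stood at 0.01 ± 0.11, and Mtor, the kinase of the complex that primes Sgk1, at −0.04 ± 0.11. Gsk3b, an enzyme lithium inhibits, stood at 0.05 ± 0.08 (limma adjusted p = 0.585).

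The ubiquitin and adaptor genes around Nedd4 were likewise not called. Their median was 0.03, with 4 of 7 tested genes above 0 and 3 below, and 0 passed at an adjusted or unadjusted p of 0.05. Ube2d3, a ubiquitin-conjugating enzyme, had the smallest p at 0.09 ± 0.05 (SD, n = 3; limma adjusted p = 0.305), though its probes read 0.17 and −0.09 on array 3. The phosphoserine-binding adaptors that join phosphorylated Nedd4l ran from −0.05 for Ywhaz to 0.08 for Ywhaq. For Ywhaz the arrays disagreed, at 0.01, 0.15 and −0.30.

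Proteases that activate the channel by cutting its alpha and gamma subunits, and their inhibitors, lay on both sides of 0. Of 8 tested genes 2 were above 0, 5 below and 1 at 0, the median was −0.02, and 0 passed the limma test, with 2 at an unadjusted p of 0.05, where 17.2% of all features were. Serpine2, an inhibitor of serine proteases, had ratios of −0.23, −0.16 and −0.31 and an adjusted p of 0.0918. Its probes read −0.30 and −0.02 on array 2 and were close on arrays 1 and 3. Prss8, the membrane-bound protease prostasin, had ratios of 0.11, 0.18 and 0.07 and an adjusted p of 0.216. Furin, which cleaves the channel on its way to the membrane, stood at −0.01 ± 0.14 (SD, n = 3), with array 2 at 0.15 and the other arrays below 0.

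Genes for channel trafficking were spread around 0, with 9 of 14 above and 5 below, a median of 0.04, 0 past the threshold and 3 at an unadjusted p of 0.05. Over all features 55.7% were above 0 and 17.2% had a limma unadjusted p under 0.05. Rab4a, of early endosome recycling, averaged 0.16 ± 0.12 (SD, n = 3; limma adjusted p = 0.194), and Marcksl1, a membrane-associated actin regulator, at 0.10 ± 0.02 (adjusted p = 0.261). The related acid-sensing channels of the degenerin family had 2 of 4 genes above 0 and 2 below, a median of 0.00, and 0 called at either threshold. Among them Asic3 was at 0.08 ± 0.03 and Asic1 at −0.07 ± 0.05. The 3 probes of Asic1 disagreed, at −0.18, 0.04 and 0.01 on array 1. That at −0.18 was empty on array 3, where the mean rests on the other probes only.

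**Figure D3:**
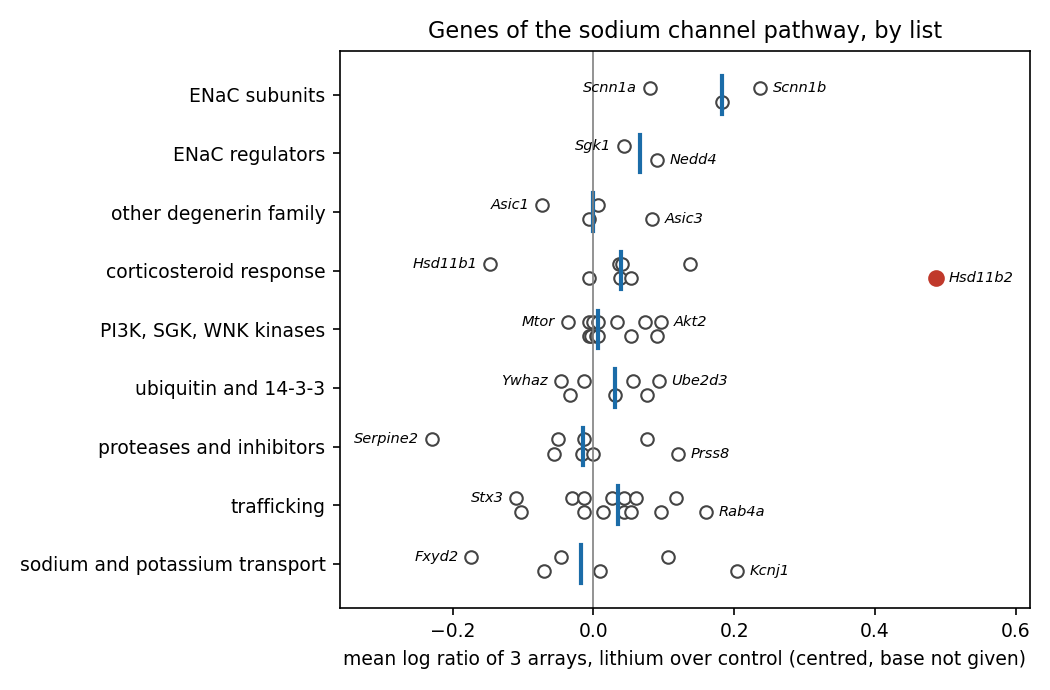
Mean centred log ratio over the 3 arrays (base not given) of each tested gene, 1 row for each list, with the list's median as a blue bar and the lowest and highest gene named. The red filled point is Hsd11b2, at 0.49, the only gene of these 9 lists past a limma adjusted p of 0.05; open points did not pass. Cell type markers are not drawn.

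Sodium and potassium transport genes, listed as partners of the channel, gave values on both sides of 0, 3 of 6 above and 3 below. Their median was −0.02, with 0 past the threshold and 3 at an unadjusted p of 0.05. The share of all features at that limma unadjusted p was 17.2%. Kcnj1, the potassium secretory channel, had ratios of 0.32, 0.22 and 0.07, with a mean of 0.20 ± 0.12 (SD, n = 3; limma adjusted p = 0.150). Its 3 probes were alike on arrays 1 and 2 and read 0.20, 0.12 and −0.10 on array 3. Kcnj1 was also counted as a thick limb marker, so the counts of this list do not describe principal cells alone. Atp1b1, the beta subunit of the sodium pump, stood at 0.11 ± 0.07 (adjusted p = 0.277), and Fxyd2, the pump's gamma subunit, at −0.17 ± 0.13 (adjusted p = 0.183).

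Markers of principal cells, the cells that carry the channel, lay above 0 together with Scnn1b and Scnn1g. Of 9 marker genes 8 had a mean above 0 and 1 at 0, from 0.00 for Krt18 to 0.49 for Hsd11b2, with a median of 0.13. Over all features 55.7% had a mean above 0 and 0.445% passed the limma test. Hsd11b2 and the keratin gene Krt19 passed, and the water channel genes Aqp2, Aqp3 and Aqp4 stood at 0.17, 0.01 and 0.11 without passing. Aqp2 protein is known to fall under lithium. The Aqp2 ratio here is one of RNA, and under the assumed direction it has the opposite sign to that fall. The medians of the other marker lists ranged from −0.01 for thin limbs and urea transport to 0.06 for proximal tubule, with 0 genes called. The median near 0 for thin limbs and urea transport joined genes of opposite sign. Aqp1 and Bst1 stood at −0.19 and −0.11, below 0 on all 3 arrays. The urea transporter genes Slc14a2 and Slc14a1 stood at 0.10 and 0.09, above 0 on all 3. Of 9 proximal tubule genes 5 lay above 0, up to 0.20 for Slc22a6, and 4 below. The thick limb list had 2 genes above 0 and 2 below, from −0.18 for Umod to 0.20 for Kcnj1. Leukocyte genes were 4 above and 2 below, from −0.39 for Itgam to 0.16 for Cd4. The 3 intercalated cell genes had means between 0.01 and 0.08, but the 2 probes of Slc4a1 had opposite signs, at 0.12 and −0.12 on array 1 and 0.25 and −0.27 on array 2, and only the first had a value on array 3. The part of cell composition in the ratios of the channel genes was not tested.

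**Figure D4:**
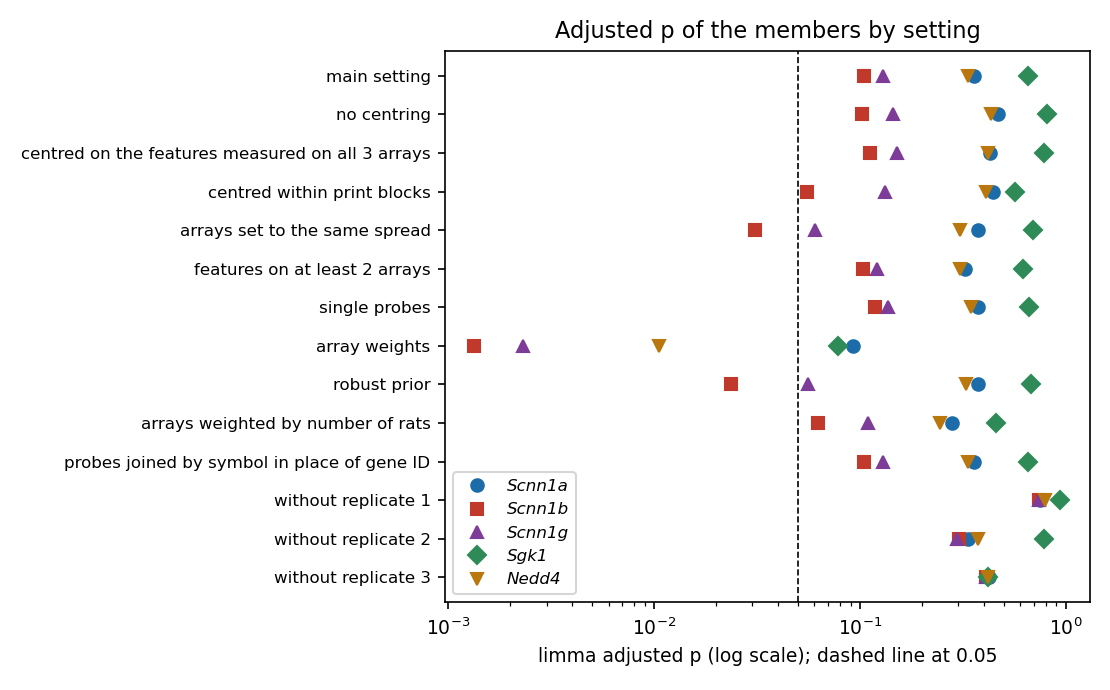
Limma adjusted p (log axis) of the 5 genes in the main setting and 13 alternatives, with the dashed line at 0.05. Scnn1b is under the line with arrays at the same spread, with array weights and with a robust prior, Scnn1g and Nedd4 with array weights, and Scnn1a and Sgk1 in none.

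The mean ratio of each gene stayed above 0 in 14 of 14 alternatives, from 0.205 to 0.29 for Scnn1b, from 0.15 to 0.215 for Scnn1g, from 0.055 to 0.095 for Scnn1a, from 0.055 to 0.14 for Nedd4 and from 0.02 to 0.085 for Sgk1. Much of this was fixed beforehand. Changes of prior, threshold, filter or probe joining leave the mean of a gene with 1 probe as it was. For genes above 0 on every array, leaving out or weighting arrays could not bring the mean below 0. The Nedd4 call, at an adjusted p of 0.0105, came from estimated array weights, which gave array 1 a weight of 4.52 against 0.371 and 0.596 for arrays 2 and 3, and so rested mostly on array 1. When arrays were weighted by their number of rats instead, an alternative chosen after seeing the data, 0 of 5 passed and 3 had an unadjusted p under 0.05. In that setting, 23 of all 3819 features passed and 752 had a limma unadjusted p under 0.05.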

How the data were processed

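The table deposited by the authors held, for 5760 probes, a log ratio with 2 decimals per array. No source used here states the scanner, the background correction, the normalization, a filter on dim spots or the base of the logarithm. Of the probes, 5064 had 1 gene symbol in the platform annotation, 9 several and 687 none listed. Gene IDs of 5043 probes were in the RefSeq table (GRCr8), and 0 symbols changed.

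Each array was centred on its median and probes of 1 gene ID were averaged. Features measured on all 3 arrays were tested with limma 3.58.1 (R 4.3.3) by an intercept-only fit, eBayes and Benjamini-Hochberg adjustment over all 3819, two-sided, at 0.05. On simulated data with as many features, the fit recovered 49.3%, 89.6% and 100.0% of shifts of 0.2, 0.3 and 0.5, beside 11 false calls, under noise drawn independently from normal distributions. Shifts were planted in many more features than the 17 that passed in the data. The Benjamini-Hochberg cut-off loosens as more features pass, so these shares do not measure the power for the members. The number of arrays limits the precision. Genes named were the members, the 3 genes most like each, and, of each list, some of the 6 with the smallest p, chosen among these after their values were seen; Tsc22d3, Pdpk1, Wnk1, Furin and some marker genes, outside that rule, were likewise chosen after their values were seen. Members and lists were chosen with earlier results of these data known. Alternatives changed centring, spread, filter, probes, weights, prior, threshold or left out an array. Tables and figures were made in Python 3.11.15 with numpy 2.4.6, pandas 2.3.3 and matplotlib 3.10.9.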

Additional observations from a re-analysis of the deposited data

How the results depend on the processing

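The count of features past the limma threshold moved more than the members' ratios did, which several of the alternatives could not change. Against 17 features (9 higher, 8 lower) it was 98 (35 higher, 63 lower) with arrays at the same spread, 40 (4 higher, 36 lower) with features on at least 2 arrays, 11 for single probes, 1055 with array weights, 94 with a robust prior and 49 at an adjusted p of 0.10. Of the member genes, 1 passed with the same spread (Scnn1b at 0.24), 3 with array weights (Scnn1b at 0.27, Scnn1g at 0.20 and Nedd4 at 0.14) and 1 with a robust prior (Scnn1b at 0.24); the cause was not tested. Without 1 array, limma called from 0 to 0 features and members, with 172, 606 and 445 features at an unadjusted p under 0.05 without array 1, 2 and 3. The difference of Scnn1b minus Scnn1g ran from −0.01 without array 2, a reversal, to 0.13 without array 3. Joining probes by symbol in place of gene ID, chosen after seeing the data, gave 13 features. The list medians changed by less than the spread of their values by array, except that of channel trafficking under 4 alternatives, from 0.01 to 0.02 against 0.035. At the same spread 13 of the 15 genes named for likeness were kept. No paired analysis was possible because each array is itself a ratio of its lithium and control RNA and the 3 arrays form 1 group. The number of arrays, not a depth, limits the precision, since no spot intensities were used here.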

Other observations

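Several genes of the channel's pathway had no value on array 3 and so were not in the main test. Cftr, the chloride channel that interacts with ENaC, was read by 2 probes at −0.31 and −0.37 on array 1 and at −0.44 and −0.13 on array 2. Plat, the tissue plasminogen activator, stood at −0.21 and −0.17 on these arrays, and the degenerin family channel Asic5 at −0.24 and −0.31. Edn1, the endothelin that inhibits the channel in collecting duct, stood at 0.02 and −0.25, so its arrays were on opposite sides of 0. Ap2m1, a clathrin adaptor subunit of endocytosis, stood at 0.22 and 0.23. These genes were named after their values were seen. They were tested only in the alternative fit of features measured on at least 2 arrays, where limma called 4 features higher and 36 lower. Whether any of these genes was among those calls is not reported here.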
